A study of Drosophila melanogaster with 3 samples.

Results

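Mod(mdg4) is a family of Drosophila chromatin proteins made in many isoforms, all with the same N-terminal BTB domain and each with a C-terminal part of its own. The Mod(mdg4)2.2 isoform is the best known of them. It joins the zinc finger protein Su(Hw) and the BTB protein CP190 at the gypsy insulator, a DNA element that blocks an enhancer from reaching a promoter when it lies between them. L(3)mbt is a repressive chromatin protein with MBT repeats and is known as a suppressor of brain tumours in the larva. The sites described here carried the 2.2 isoform and no L(3)mbt peak, at a position where the signal of the antibody against all Mod(mdg4) isoforms lay below the ceiling of its score. They numbered 1095 of the 7621 peaks in the BTB list, and are called the weaker 2.2 sites, or members, below.

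The data came from chromatin immunoprecipitation and sequencing in Kc167, an established Drosophila melanogaster line of embryonic origin kept in serum-free medium. No treatment or genetic change is named in the labels. There were 3 libraries, with 1 for each antibody: Mod(mdg4)2.2 (2846 peaks), Mod(mdg4)BTB, which recognises every isoform (7621 peaks), and L(3)mbt (3352 peaks). The control reads, taken from previous work on the line, were not used here. Each list gives the position of a peak and the authors' peak score, which was used only to rank or sort peaks within its own list. Depth is unknown and no library had a replicate, so no difference below has a test. The 95% Wilson intervals cover the counting of peaks only, and neighbouring peaks are not independent.

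The members were chosen by measured values, namely the BTB score and the presence or absence of a 2.2 and an L(3)mbt peak. Of the 7621 BTB peaks, 6144 lay on the 5 long arms (X and the left and right arms of chromosomes 2 and 3), and 4255 of these scored below 3100. Among the 4255, 1311 shared at least 1 bp with a 2.2 peak, and 216 of the 1311 also met an L(3)mbt peak, which left the 1095 members. They made up 25.7% of the long-arm BTB peaks scoring below 3100. The BTB score of the members ran from 100 to 3093, with a median of 637 and quartiles of 276 and 1438. Just inside the limit, the member at X:9784676-9785520 scored 3092.70 and the one at 2L:4660790-4661405 scored 3089.41. Just outside it, 650 BTB peaks with 2.2 and no L(3)mbt scored exactly 3100 and 13 scored more, up to 3233.06. The first of them in genome order lay at 2L:65585-66193. These scores chose the members and support nothing further. Sequences are named as in the fly genome's release 5, and positions count from 1. Genes at these positions were not analysed here.

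The BTB signal at a weaker 2.2 site sat inside a broader 2.2 peak and close to its middle. The nesting is not particular to the members. Over the whole lists, the median width was 1172 bp for 2.2 peaks and 628 bp for BTB peaks. The members had a median width of 574 bp (quartiles 529 and 669 bp), and their 2.2 peaks a median width of 1137 bp (quartiles 1062 and 1447 bp). In all, 1056 of the 1095 members lay wholly inside their 2.2 peak (96.4%, 95.2 to 97.4%), beside 90.8% of all long-arm BTB peaks with 2.2. In 3 members the BTB peak was the wider of the pair (0.274%, 0.0932 to 0.802%). The centres of the BTB and 2.2 peaks were a median of 33 bp apart (quartiles 13.5 and 110 bp), and in 674 members they lay within 50 bp (61.6%, 58.6 to 64.4%). At the BTB peaks of at least 3100 with 2.2 and no L(3)mbt, 663 in number and called the strong 2.2 sites below, the median distance was 51.5 bp over wider BTB peaks (median 752 bp). Their centres lay within 50 bp at 326 sites (49.2%, 45.4 to 53.0%). For BTB peaks below 3100 with 2.2 and L(3)mbt it was 68 of 216 (31.5%). Within 200 bp the members and strong sites were close, at 80.2% (77.7 to 82.4%) and 78.6% (75.3 to 81.5%). The BTB peak was the wider of the pair at 16 of the 663 strong 2.2 sites (2.41%, 1.49 to 3.88%). At 623 of them it lay wholly inside the 2.2 peak (94.0%, 91.9 to 95.5%). The member at 2L:4660790-4661405, named for its high BTB score, had a BTB peak nested centrally in its 2.2 peak. Its scores were far above the members' medians of 637 (BTB) and 800 (2.2). Its BTB peak of 616 bp scored 3089.41, its 2.2 peak of 1103 bp scored 3100, and the centres were 0.5 bp apart.

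The score of the 2.2 peak went with that of the BTB peak. The choice of members used the presence of a 2.2 peak but not its score. The BTB antibody recognises the 2.2 isoform too, so the 2 signals are not independent measures. The 2.2 score of the members ran from 100.2 to 3233, with a median of 800 and quartiles of 315 and 1806. From the lowest to the highest band of BTB score the median 2.2 score was 264 (BTB 100 to 200, 174 members), 386 (200 to 500, 288 members), 798 (500 to 1000, 244 members), 1569 (1000 to 2000, 235 members) and 2717 (2000 to 3100, 154 members). Each band thus had a higher median than the one before it, and the quartiles of neighbouring bands overlapped. The Spearman correlation between the 2 scores was 0.63 over the 1095 members, and between 0.58 on 2R and 0.68 on 2L on single arms. The points of this relation come from 2 libraries of the same cell line, and in both lists the score also went with the peak's own width (Spearman correlation 0.52 for BTB and 0.58 for 2.2).

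At the extremes, 114 members had a 2.2 peak at or above 3100 (10.4%, 8.74 to 12.4%), beside 32.6% of all 2.2 peaks on the long arms. Counted by 2.2 peak, it was 99 of the 1038 that members met (9.54%, 7.90 to 11.5%). The share depended on how members were defined, at 6.16% with centres within 200 bp, 6.85% with peaks set to 400 bp, 6.55% with the highest BTB peak of each 2.2 peak, 5.84% for BTB peaks alone in their 2.2 peak and 4.53% for BTB scores below 1000. At the strong 2.2 sites 578 of 663 had a 2.2 peak at or above 3100 (87.2%, 84.4 to 89.5%). Members and strong sites were split by BTB score, with which the 2.2 score goes. This difference and the shares by 2.2 score below are therefore not independent of the choice. A 2.2 score below 200 was found at 150 members (13.7%, 11.8 to 15.9%), beside 17.4% of all long-arm 2.2 peaks, and at 11 of the 663 strong sites (1.66%, 0.929 to 2.95%). The members met 1038 of the 2195 long-arm 2.2 peaks (47.3%, 45.2 to 49.4%). By 2.2 score they held 38.1% of the 2.2 peaks scoring 100 to 200 (33.4 to 43.1%). Their share was 89.4% in the range from 1000 to 2000 (85.0 to 92.6%), and at the ceiling it was 13.8% (11.5 to 16.6%). The middle of the 2.2 list therefore lay largely at weaker BTB peaks without L(3)mbt. A few members paired a high BTB score with a low 2.2 score. At 3R:7094672-7095119 the BTB score was 2659.88 and the 2.2 score 190.08, and at 2R:755508-756402 they were 2248.65 and 120.92.

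**Figure D1:**
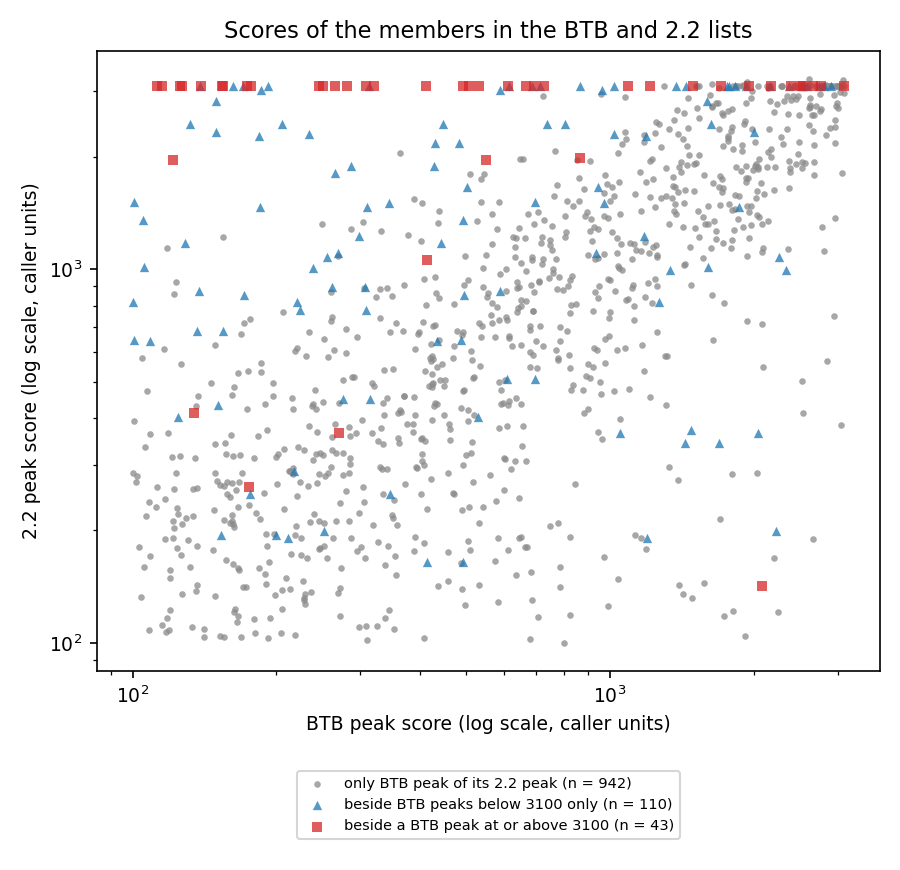
BTB score (x axis) against 2.2 score (y axis) of the 1095 members, both on log scales in the caller's units. Each point is a member; grey points are the only BTB peak of their 2.2 peak, blue and red points share it with other BTB peaks. The grey points run along a diagonal, and no grey point with a BTB score below 1000 reaches a 2.2 score of 3100.

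Members with a BTB score below 1000 under a 2.2 peak at the ceiling were all found where several BTB peaks lay in that 2.2 peak. Most members, 942 of 1095 (86.0%, 83.9 to 88.0%), were the only BTB peak of their 2.2 peak, and 153 shared it (14.0%, 12.0 to 16.1%), beside 15.8% of all long-arm BTB peaks with 2.2. Of the 153, 43 lay beside a BTB peak at or above 3100 and 110 beside weaker BTB peaks only. Among the 706 members scoring below 1000 in the BTB list, 32 had a 2.2 peak at or above 3100. Of these 32, 23 lay beside a BTB peak at or above 3100 and 9 beside weaker BTB peaks. None of the 600 lone members scoring below 1000 had such a 2.2 peak (0 of 600, with a Wilson upper limit of 0.636%; taken as 3 counts of 600, the limit is 0.5%). Among the 342 lone members scoring 1000 to 3100, 55 did (16.1%, 12.6 to 20.4%).

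The 43 members beside a BTB peak at or above 3100 had a median BTB score of 492 and a median 2.2 score of 3100, with 35 of 43 at or above it (81.4%, 67.4 to 90.3%). Their 2.2 peaks had a median width of 2253 bp, against 1121 bp over lone members. A 2.2 peak that meets several BTB peaks has to reach over them, so part of this difference is fixed by how the classes are defined. The gap between the edges of the member and its strongest companion had a median of 200 bp (quartiles 116 and 405 bp). At 2R:9511999-9512522 the member scored 115.22 in the BTB list, the 2.2 peak over it spanned 2967 bp and scored 3100, and the other BTB peak in it scored 3100. At X:8935521-8935933 the BTB score was 112.63, and the 2.2 peak of 1548 bp again scored 3100 and held a second BTB peak at 3100. The score of such a 2.2 peak belongs to its whole width and not to the member alone. Over the 942 lone members, the Spearman correlation between BTB and 2.2 scores was 0.76, and over the 43 it was 0.13. With 35 of the 43 tied at a 2.2 score of 3100, the value of 0.13 is limited by the ties. It therefore cannot be set against 0.76.

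The place of the BTB peak within the 2.2 peak also differed between these kinds of members. Lone members had centres a median of 25.8 bp from that of the 2.2 peak (quartiles 11.5 and 62.5 bp), and 866 of 942 were within 200 bp (91.9%, 90.0 to 93.5%). Beside a BTB peak at or above 3100 the median was 629 bp and 2 of 43 were within 200 bp. Beside weaker BTB peaks the median was 459 bp and 10 of 110 were within 200 bp. At least 2 BTB peaks inside the same 2.2 peak cannot all be central, so part of this difference is fixed by how the classes are defined.

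**Figure D2:**
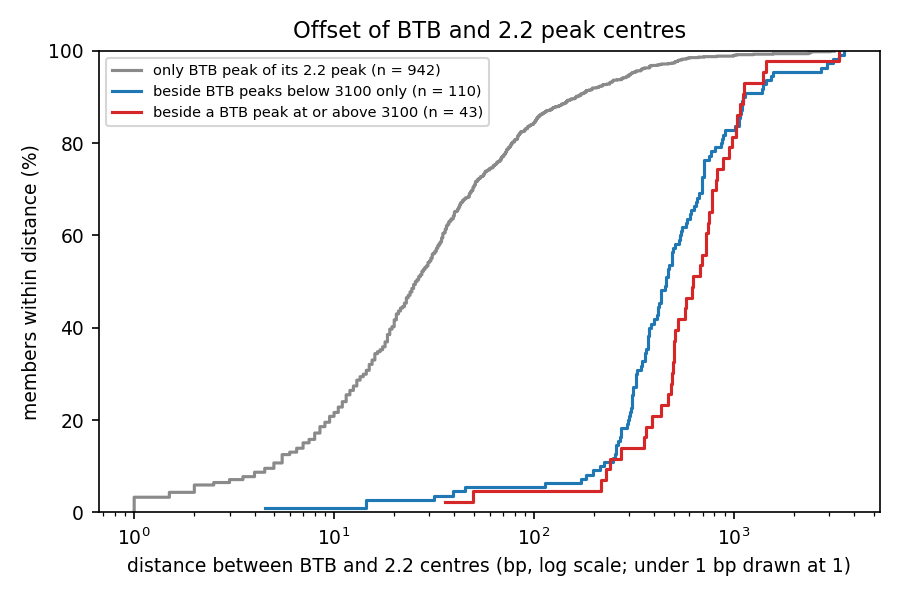
Cumulative share of members (y axis, %) by the distance between the BTB and 2.2 peak centres (x axis, bp, log scale), for lone members (grey, n = 942), members beside weaker BTB peaks only (blue, n = 110) and members beside a BTB peak at or above 3100 (red, n = 43). The grey line passes 50% near 25.8 bp, the blue and red lines near 459 and 629 bp.

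The BTB peaks most like the members are the 216 that scored below 3100, held 2.2 and also met L(3)mbt. Their BTB scores were close to those of the members, with a median of 642 (quartiles 357 and 1389), but their 2.2 peaks scored lower, with a median of 344 (quartiles 176 and 628) against 800 for the members. A 2.2 score below 200 was found at 73 of the 216 (33.8%, 27.8 to 40.3%), against 13.7% of the members. The 2 classes were set apart mainly at the upper BTB scores. In the band of 100 to 200 the median 2.2 score was 350 with L(3)mbt (22 peaks) and 264 without it, so here the order was the opposite. In the band of 500 to 1000 it was 288 with L(3)mbt (50 peaks) and 798 without. In the band of 2000 to 3100 it was 483 with L(3)mbt (28 peaks, quartiles 188 and 899) and 2717 without it (154 members, quartiles 1875 and 3100). In this band the quartile ranges of the 2 classes did not overlap.

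Over the 216 peaks with L(3)mbt, the Spearman correlation between BTB and 2.2 scores was 0.096, against 0.63 over the members. For peaks alone in their 2.2 peak it was 0.22 (135 peaks) against 0.76 (942 members), and with 2.2 scores at the ceiling left out it was 0.085 (197 peaks) against 0.64 (981 members). The BTB peaks with L(3)mbt were wider (median 699 against 574 bp) and more often shared their 2.2 peak (37.5%, 31.3 to 44.1%, against 14.0%). With BTB peaks of up to 1000 bp, the Spearman correlation was 0.031 (172 peaks) against 0.62 (1007 members). Among the 216 peaks and the members, those with BTB and 2.2 centres within 200 bp gave 0.26 (134 peaks) against 0.77 (878 members). Over the same 216 peaks, the Spearman correlation between the BTB score and the score of the L(3)mbt peak was 0.068.

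**Figure D3:**
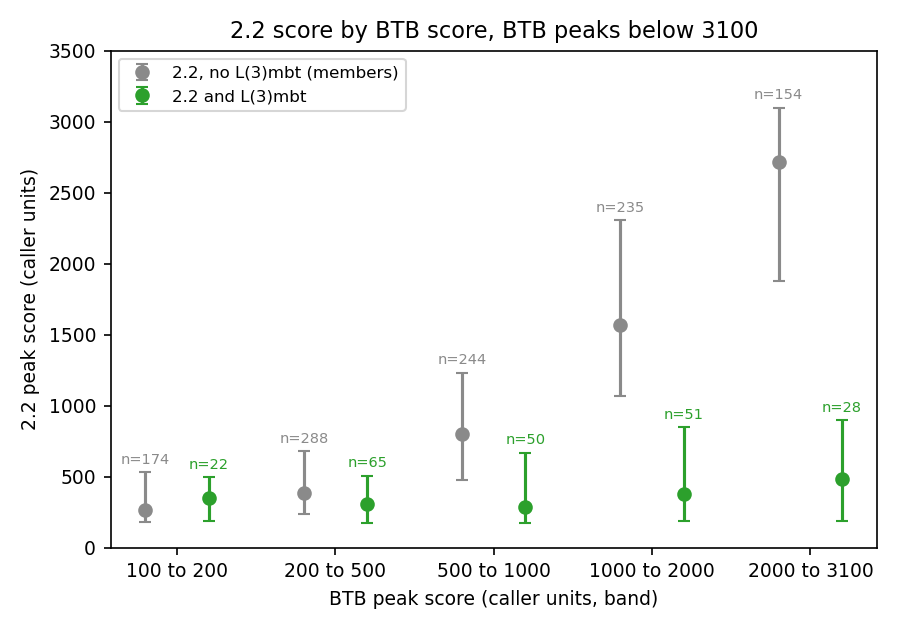
Median 2.2 score (y axis, caller's units) by band of BTB score (x axis) for the members (grey) and for BTB peaks below 3100 with 2.2 and L(3)mbt (green); bars span the quartiles and n is the number of peaks. The grey medians go from 264 to 2717 and the green ones stay between 288 and 483.

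Away from the peaks themselves, L(3)mbt was farther from the weaker 2.2 sites than from the BTB peaks below 3100 without 2.2. The nearest L(3)mbt peak was a median of 25000 bp from the edge of a member (quartiles 10260 and 50388 bp) and 22316 bp from a strong 2.2 site. For the 1693 BTB peaks below 3100 that met neither 2.2 nor L(3)mbt it was 13179 bp. These 1693 peaks had lower BTB scores than the members, with a median of 283 (quartiles 154 and 730) against 637. Within 5 kb of an L(3)mbt peak lay 142 members (13.0%, 11.1 to 15.1%), beside 22.0% of all long-arm BTB peaks that met no L(3)mbt peak. The share was 16.1% for the strong 2.2 sites (13.5 to 19.1%) and 28.9% for the peaks with neither (26.8 to 31.1%). The intervals of the members and the strong sites overlap, and that of the peaks with neither lies above both. The choice of members used only whether a peak met L(3)mbt, which all 3 of these classes have in common.

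Within bands of BTB score, and on single arms, the members' share was below that of the peaks with neither in each of the 5 bands and on each of the 5 arms. In the band of 100 to 200, 16.1% of members (11.4 to 22.3%) and 30.3% of peaks with neither (26.9 to 34.1%) lay within 5 kb of L(3)mbt. In the band of 2000 to 3100 these shares were 15.6% (10.7 to 22.1%) and 23.5% (16.2 to 32.8%), with intervals that overlap. Between arms the members' share ran from 7.21% on 2L (4.42 to 11.6%) to 17.2% on X (12.6 to 22.9%). The arm 2L was also the sparsest in L(3)mbt peaks, with 19.99 per Mb against 23.4 to 27.9 on the other arms. On X the shares of members and of peaks with neither came closest, at 17.2% and 26.3% (21.8 to 31.2%).

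L(3)mbt came within 1 kb of 36 members (3.29%, 2.38 to 4.52%), beside 6.49% of all long-arm BTB peaks that met no L(3)mbt peak. The share was about the same at the strong 2.2 sites (21 of 663, 3.17%, 2.08 to 4.79%), and it was 9.16% of the peaks with neither (7.87 to 10.6%). The nearest gap was 15 bp, at 3R:18354109-18355073, where BTB scored 356.20, 2.2 scored 152.33 and the L(3)mbt peak scored 264.48. At 2L:7533798-7534538 the gap was 36 bp, the BTB score 2390.93, the 2.2 score 3100 and the L(3)mbt score 778.87. In 16 members the BTB peak missed L(3)mbt while the 2.2 peak over it met an L(3)mbt peak (1.46%, 0.901 to 2.36%). The same held at 5 of the 663 strong 2.2 sites (0.754%, 0.323 to 1.75%), with intervals that overlap. Of the 16 members, 15 shared that 2.2 peak with other BTB peaks. Members within 5 kb of L(3)mbt had a median 2.2 score of 926 (142 members, quartiles 365 and 2085). Those beyond 5 kb had one of 770 (953 members, quartiles 313.5 and 1751), and the quartile ranges overlap widely. The median BTB score was 770 within 5 kb and 636 beyond it. The 2.2 scores were not compared at like BTB scores, and a relation to nearby L(3)mbt was not tested.

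**Figure D4:**
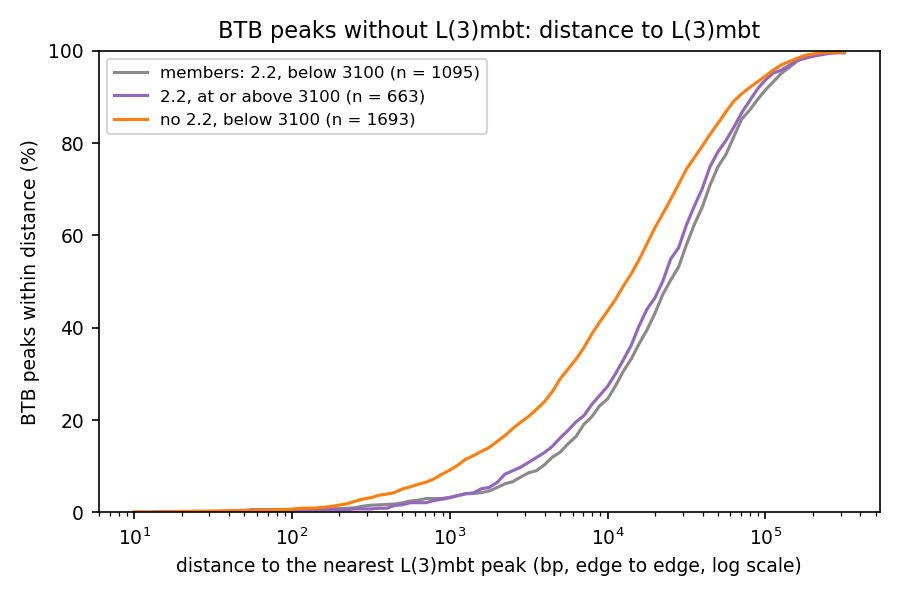
Cumulative share of BTB peaks without L(3)mbt (y axis, %) by the distance to the nearest L(3)mbt peak (x axis, bp between edges, log scale), for the members (grey, n = 1095), the strong 2.2 sites (purple, n = 663) and BTB peaks below 3100 with neither protein (orange, n = 1693). At 5 kb the lines stand at 13.0%, 16.1% and 28.9%.

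Along the chromosome the weaker 2.2 sites tended to stand next to other 2.2 sites. Each member has an adjacent BTB peak on either side, and 2028 such neighbours lay outside the member's own 2.2 peak (a pair of adjacent members counts each for the other). Of these, 632 were members themselves (31.2%, 29.2 to 33.2%), while members were 17.8% of all long-arm BTB peaks. Strong 2.2 sites made up 302 (14.9%, 13.4 to 16.5%), against 10.8% of all. Peaks with L(3)mbt, with or without 2.2, made up 449 (22.1%, 20.4 to 24.0%), against 35.5% of all. Next to the strong 2.2 sites the shares were 24.3% members (22.0 to 26.7%) and 19.4% strong sites (17.3 to 21.7%). Next to the BTB peaks below 3100 with neither protein, members were 15.2% (14.0 to 16.4%) and peaks with L(3)mbt 31.9% (30.3 to 33.5%). Peaks of their own class made up 33.9% of these neighbours (32.3 to 35.5%), against 27.6% of all. Standing next to peaks of like class was thus not particular to 2.2 sites. The overall spacing of BTB peaks was similar in these classes. Another BTB peak lay within 5 kb of 580 members (53.0%, 50.01 to 55.91%), beside 55.0% of all long-arm BTB peaks, 51.3% of the strong 2.2 sites (47.5 to 55.1%) and 50.9% of the peaks with neither (48.5 to 53.3%).

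**Figure D5:**
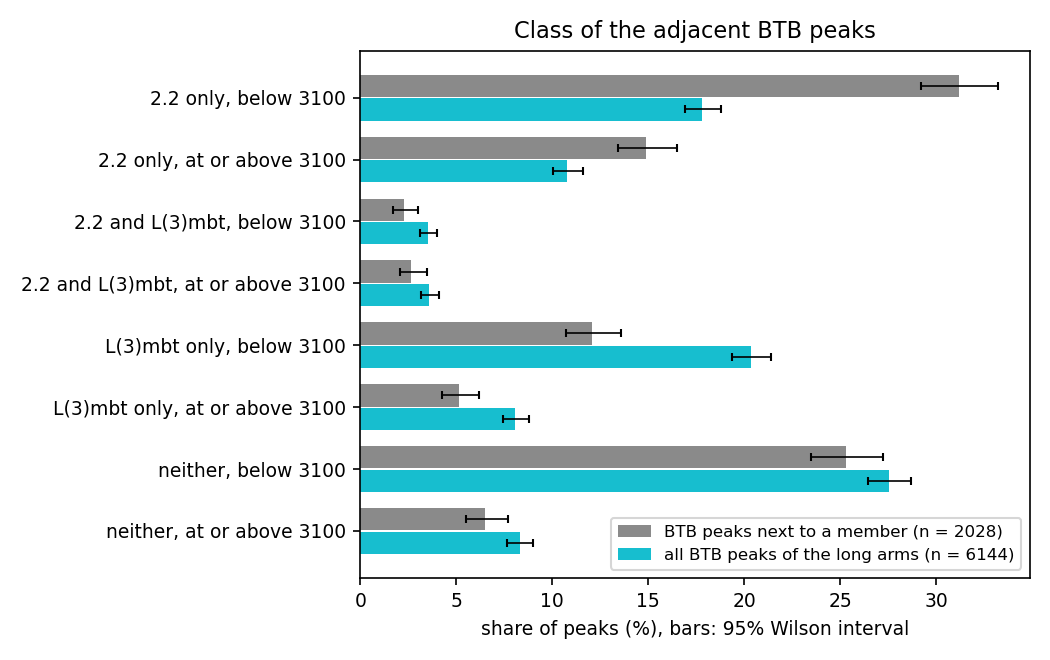
Share of peaks (x axis, %) in each class of BTB peak (y axis) among the 2028 BTB peaks adjacent to a member and outside its 2.2 peak (grey) and among all 6144 long-arm BTB peaks (blue-green); bars are 95% Wilson intervals. Members are 31.2% of the adjacent peaks and 17.8% of all, and peaks below 3100 with L(3)mbt only are 12.1% and 20.4%.

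With consecutive centres within 10 kb taken as a run, 667 members stood alone (60.9%) and 428 fell into 184 runs (39.1%), of which 146 spanned at least 2 separate 2.2 peaks. By the same distance, counted within each class, 26.8% of the 663 strong 2.2 sites and 35.7% of the 1693 peaks below 3100 with neither fell into runs. These shares move with the number of peaks in a class and were not set against a placement by density. The longest runs held 5 members, and there were 6 of them. The first in genome order, 2L:6569756-6594791, held 5 members under 5 separate 2.2 peaks and no L(3)mbt peak. Their BTB scores were 251.06, 1901.00, 173.92, 823.76 and 458.71, and their 2.2 scores in the same order were 319.01, 3110.48, 423.88, 764.62 and 284.80. The second member was the highest in both lists, and each BTB centre lay within 32.5 bp of its 2.2 centre. At the other extreme, the member at 2L:14490176-14491062 was 79444 bp from the nearest other peak of any list. Its BTB score was 692.92 and its 2.2 score 869.17.

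The members were spread over the 5 arms at similar densities. The largest number, 278, lay on 3R, followed by 227 on 3L, 208 on 2L, 204 on X and 178 on 2R. Per Mb spanned by peaks, the density ran from 8.43 on 2R to 9.96 on 3R, with 9.23 over all 5. The arms differed more in how weaker and strong 2.2 sites were balanced. The arm 2L held 2.24 members for each strong 2.2 site (208 and 93), and 2R held 1.20 (178 and 148), with 1.58 to 1.82 on the other arms. As a share of the BTB peaks below 3100, members were 29.3% on 2L (26.1 to 32.8%) and 21.6% on 2R (18.9 to 24.5%). The median BTB score was 605.5 to 681.1 and the median 2.2 score 681 to 880 on single arms, with both highest on 2L. Within arms, a whole 1 Mb window held from 1 to 22 members over 116 windows (median 9, quartiles 6 and 12.3). The richest window was 3L:5000001-6000000, with 22 members among 63 BTB peaks, while X:17000001-18000000 held 1 member among 44. Across the windows, the Spearman correlation between members and the other BTB peaks was 0.098.

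A small set of members was broad, as were some peaks of other classes. The BTB peak was wider than 1000 bp in 88 members (8.04%, 6.57 to 9.80%), beside 10.3% of all long-arm BTB peaks below 3100 and 23.1% of the strong 2.2 sites (20.03 to 26.43%). It was wider than 2000 bp in 32 members (2.92%, 2.08 to 4.10%), beside 1.22% of all long-arm BTB peaks below 3100, 1.21% of the strong 2.2 sites (0.613 to 2.36%) and 1.12% of the peaks with neither (0.720 to 1.75%). In 12 members it was wider than 4000 bp (1.10%, 0.628 to 1.91%), beside 0.40% of all long-arm BTB peaks below 3100. The share was 0.295% of the peaks with neither (0.126 to 0.690%) and 0 of the 663 strong 2.2 sites. Over the 32, the median 2.2 width was 5546 bp, so broad BTB peaks lay under broad 2.2 peaks. Their median BTB score was 600, close to the 637 of all members, and their median 2.2 score 875. The widest, 2R:13063909-13069987, spanned 6079 bp with a BTB score of 488.53 under a 2.2 peak of 6562 bp that scored 139.73. At 3R:1572944-1578611 a BTB peak of 5668 bp scored 1125.13 and its 2.2 peak of 6120 bp scored 796.76. At 3R:27105316-27110975 the widths were 5660 and 6171 bp and the scores 705.62 and 117.08.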

How the data were processed

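Each library has 1 deposited list of peaks, with position, peak name and score. Per the submitters' processing notes, the aligner was Bowtie, version 0.12.5. Peaks are named in the style of MACS, per the files. Not given in the sources used here are the caller's version and settings, how control reads entered, and the genome build. The deposited score is the authors' own value for a peak, runs from just above 100 and is tied at 3100 for many peaks, so all peaks at or above 3100 were treated as tied. Overlaps were counted from 1 shared bp, gaps between nearest edges, and distances between midpoints. No member met more than 1 2.2 peak. Correlations are descriptions over peaks.

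The members and lists of comparisons were chosen with earlier results of these data known. Named peaks were the 3 members at each extreme of BTB score, of disagreement between scores, of nearness to L(3)mbt, of isolation and of width, and the longest run, with ties in genome order. The text gives some of each, except that no member with the lowest BTB score is named. The counts per 1 Mb window, the classes of members by shared 2.2 peak, the comparison of scores with and without L(3)mbt, and the shares of broad peaks and of runs in other classes were added after seeing the data. The code was tested on simulated lists with planted members. Computation used Python 3.11.15, numpy 2.4.6, pandas 2.3.3, scipy 1.17.1 and matplotlib 3.10.9.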

Additional observations from a re-analysis of the deposited data

How the results depend on the processing

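No paired analysis was possible because there is 1 library per antibody. Depth is unknown, and it limits which weak peaks were called in each list. The alternatives were an overlap of 50% of the shorter peak, centres no more than 200 bp apart, a fixed peak width of 400 bp, no L(3)mbt within 1 kb, 2.2 peaks free of L(3)mbt, peaks of at least 200 in each list, a BTB limit of 1000, 1 BTB peak per 2.2 peak and, chosen after seeing the data, lone BTB peaks. They gave 925 to 1091 members, except 855 with the minimum score of 200 and 706 with the limit of 1000, which leaves out members by construction. The rules for overlap, centres and width were applied to 2.2 and L(3)mbt alike. With centres within 200 bp, a member could thus overlap an L(3)mbt peak off its centre. This rule differs from the limit on BTB and 2.2 centres alone, used above for some correlations. The share with 2.2 at the ceiling was 6.16% with centres within 200 bp, 6.85% at 400 bp, 4.53% with the limit of 1000, 6.55% with 1 BTB peak per 2.2 peak and 5.84% for lone peaks. The median distance between centres was 24.5 bp with centres within 200 bp, 28 bp at 400 bp, 28 bp with 1 BTB peak per 2.2 peak and 25.8 bp for lone peaks. The share with L(3)mbt within 5 kb was 16.8% with centres within 200 bp, 10.0% with a clearance of 1 kb and 9.83% with the minimum score. The share of 16.8% counts members that overlap an L(3)mbt peak off its centre. The clearance removes members close to L(3)mbt, and the minimum score removes weak L(3)mbt peaks. Both of these shares therefore fall partly by construction. The share with another BTB peak within 5 kb was 48.3% with centres within 200 bp, 49.8% at 400 bp, 47.5% with the minimum score, 48.3% with 1 BTB peak per 2.2 peak and 45.8% for lone peaks. The Spearman correlation of BTB and 2.2 scores over the members was 0.74 with centres within 200 bp, 0.70 at 400 bp, 0.75 with 1 BTB peak per 2.2 peak, 0.76 for lone peaks and 0.39 with the limit of 1000, which narrows the range of BTB scores. Over the peaks with 2.2 and L(3)mbt it was 0.25 with centres within 200 bp, 0.24 at 400 bp and, with the limit of 1000, -0.0058. It stayed below the value for the members under each of these 9 alternatives. Under the clearance of 1 kb and with 2.2 peaks free of L(3)mbt only the members changed. There the peaks with 2.2 and L(3)mbt were the same set (0.096), so these alternatives do not check their value. The other 37 of the 63 values, those unchanged ones included, moved by less than their counting interval, or by up to 1.5 times for the number of members.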
